A study of Danio rerio with 3 samples.

Results

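The genes described are the tubulins, stathmins, end-binding proteins, kinesins, dyneins, intraflagellar transport subunits and Bardet-Biedl syndrome genes of the zebrafish, chosen by their symbols. A gene was a member when its identifier in the deposited expression table began with tuba, tubb, tubg, tubd, tube, kif, dync, dnah, dnai, stmn or mapre, or with ift, bbs or klc followed by a digit. This gave 72 of the 14428 genes in the table, and 68 of them had 1 FPKM or more in some library. FPKM scales the fragments of a gene to its transcript length and to the size of the library, so levels of different genes are given per length.

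The values came from about 1000 embryos at 72 hours post fertilization that carried both the mpeg1:mCherry and the mpx:EGFP transgene on an otherwise wild-type background, with no treatment. The mpeg1 promoter marks macrophages and the mpx promoter marks neutrophils. Pooled embryos were dissociated, and flow cytometry gave more than 50000 cells of each of 3 populations: cells with mCherry alone, cells with EGFP alone, and cells with neither reporter, called double-negative. The double-negative population is a mixture of every remaining cell type of the embryo, and there was 1 library per population. Values therefore carry no replicate error, differences were not tested, and p-values are absent.

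Microtubules are hollow polymers of alpha- and beta-tubulin that are nucleated by gamma-tubulin rings, tracked at their growing ends by end-binding proteins and held in balance with free tubulin by stathmins. Kinesins and dyneins walk along them with cargo, move chromosomes in mitosis, and build and beat cilia. Vertebrates carry several copies of the alpha- and beta-tubulin genes, some used by most cells and some mainly by neurons. Most vertebrate leukocytes lack primary cilia, and their microtubules radiate from the centrosome.

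The sort was checked on the genes whose promoters drive the reporters. The macrophage gene mpeg1 stood at 1396 FPKM in mCherry+ cells, 9.92 in EGFP+ cells and 2.84 in double-negative cells, and the neutrophil gene mpx at 55.8, 12480 and 3.10 in the same order of libraries. Over 11 macrophage markers the median log2 ratio to double-negative cells was 7.73 in mCherry+ and 1.51 in EGFP+ cells. Over 11 genes listed as neutrophil markers it was 3.59 in mCherry+ and 8.63 in EGFP+ cells. The second list includes csf3r, ncf1 and fcer1gl, also high in mCherry+ cells (7.78, 7.31 and 9.52), and cpa5, also a mast-cell marker. The macrophage list includes ctssb.1, cxcr3.2, irg1 and mfap4, also at least 4-fold higher in EGFP+ than in double-negative cells (7.36, 5.57, 4.26 and 2.15). Ratios here and below are log2 of (FPKM + 1), a scale that shrinks the differences of weakly expressed genes. Fold differences between libraries are likewise of FPKM + 1, so for weakly expressed genes they are smaller than the printed FPKM would give. Ratios of gene pairs within a library use FPKM alone. Over all 12285 genes tested medians were −0.04 (mCherry+ against double-negative), −0.05 (EGFP+ against double-negative) and −0.08 (mCherry+ against EGFP+). The scatter of 46 housekeeping genes, as an SD of the log2 ratio of FPKM without a pseudocount, was 0.56, 0.62 and 0.46 in those comparisons, and the median of 49 such genes was 0.42 in mCherry+ and 0.62 in EGFP+ against double-negative cells. Rescaling the libraries moved the median of all genes: by −0.31 after median-ratio scaling, −0.38 after housekeeping scaling and −0.58 with equal FPKM sums for mCherry+ over double-negative, by −0.40, −0.50 and −0.79 for EGFP+ over double-negative, and by 0.08, 0.10 and 0.20 for mCherry+ over EGFP+. Ratios are given as deposited, and small ratios can change sign under these scalings. The signs of tubg1, tubgcp2, tubgcp5, tuba4l, kif11, kif22, kif2c and klc1b for mCherry+ over double-negative turned under every scaling, as did those of tubgcp5, kif11, kif23, kif3a, klc1a and klc1b for EGFP+ over double-negative. With equal FPKM sums those of tubg1, tubgcp2 and tuba4l in EGFP+ cells turned as well, and those of kif14, dync1h1, dync1li2 and bbs1 both there and after housekeeping scaling. For mCherry+ over EGFP+ the near-zero ratios of tubgcp3, kif11 and klc1b turned under every scaling, that of tubb5 after housekeeping scaling and with equal FPKM sums, and those of tubgcp4, tuba8l, stmn2b, kif18a, kif23 and klc2 with equal FPKM sums.

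In each reporter library 47 of the 68 members tested were below their double-negative level and 21 above it. Of all 12285 genes tested, 6305 were below it in mCherry+ and 6298 in EGFP+ cells. Among the members, mapre1a and tubd1 had the highest ratios in EGFP+ cells. In the mCherry+ library 10 of the 68 members were at least 4-fold lower than in the double-negative library, where 7.36% of all genes tested were, and 1 was at least 4-fold higher, against 8.18% of all genes. At 2-fold the counts were 26 lower (24.1% of all genes) and 4 higher (19.9% of all genes). The median log2 ratio of the 68 members was −0.60. The split of 1 higher and 10 lower at 4-fold was 1 and 15 after median-ratio scaling, 1 and 16 after housekeeping scaling and 1 and 17 with equal FPKM sums, and 1 and 4 with a pseudocount of 5. In the EGFP+ library 4 of 68 were at least 4-fold lower than in the double-negative library (5.38% of all genes) and 2 at least 4-fold higher (8.53% of all genes). At 2-fold 25 were lower (25.0% of all genes) and 4 higher (21.2% of all genes), with a median of −0.50. The split of 2 higher and 4 lower was 2 and 11 after median-ratio or housekeeping scaling and 2 and 17 with equal FPKM sums. Both comparisons use the same double-negative library. Between the reporter libraries no member was past 4-fold in either direction, where 3.90% of all genes were higher and 3.34% lower in the mCherry+ library.

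**Figure D1:**
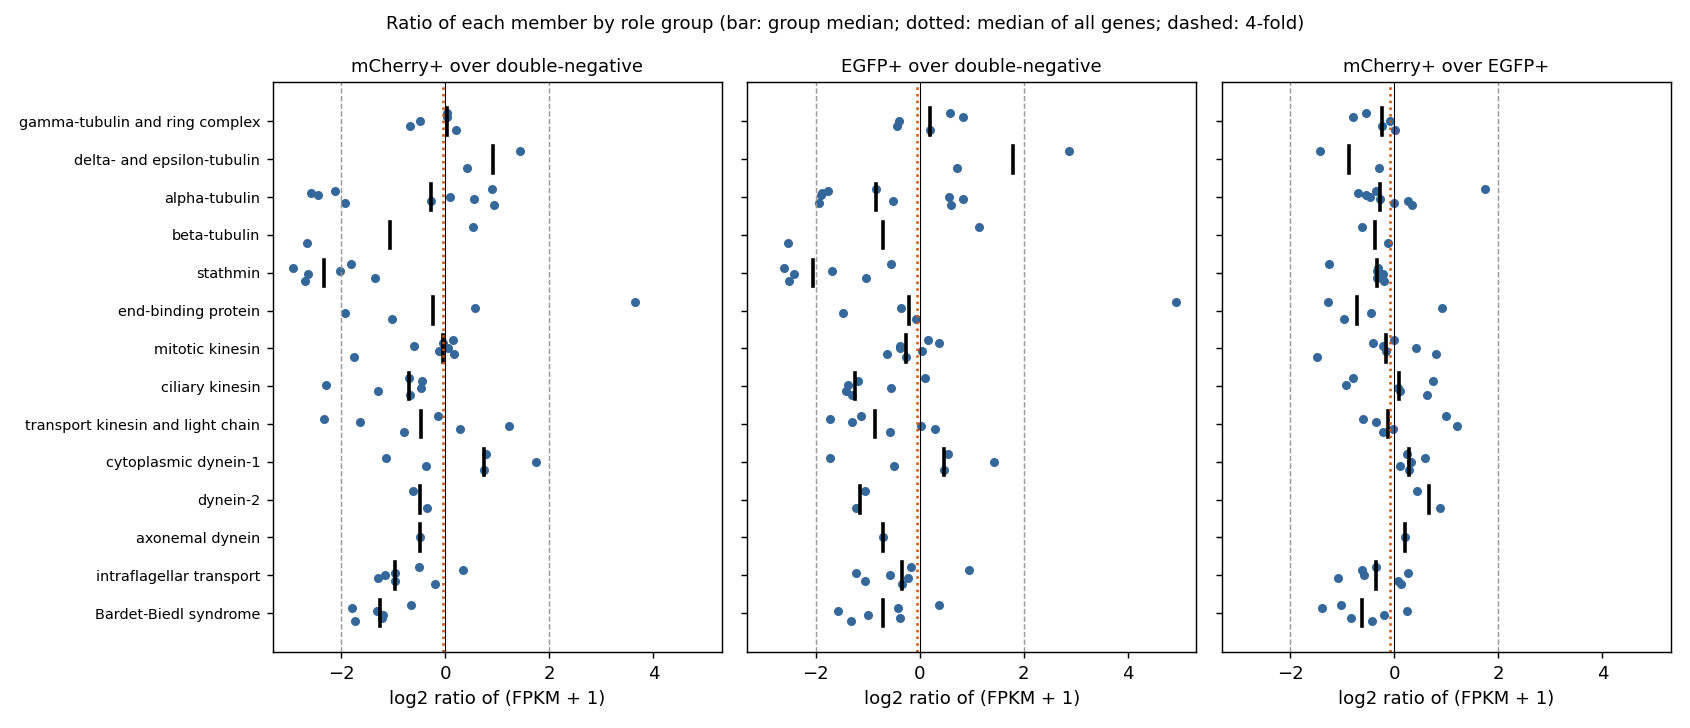
Each point is 1 member with an FPKM of 1 or more in a library, placed by its log2 ratio of (FPKM + 1) in the 3 comparisons and grouped by role; black bars are group medians, the dotted line is the median of all 12285 genes and dashed lines mark 4-fold. The stathmin medians lie at −2.33 and −2.05 against double-negative cells, and the points far to the right are mapre1a (3.64 and 4.92) and tubd1 (2.87 in the EGFP+ comparison).

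Alpha-tubulin was dominated in every library by tuba8l4 and by tuba8l, which RefSeq now names tuba5. The level of tuba8l4 was 401 FPKM in mCherry+ cells, 318 in EGFP+ cells and 209 in double-negative cells. For tuba8l the levels were 219, 264 and 149 FPKM in the same libraries. Both genes were thus above their double-negative level in each reporter library as deposited; with equal FPKM sums the sign of tuba8l turned in both comparisons and that of tuba8l4 in EGFP+ cells, where housekeeping scaling turned it too. Together they made up 55.5% and 30.3% of the summed alpha-tubulin FPKM in the mCherry+ library, 47.2% and 39.3% in the EGFP+ library, and 33.2% and 23.7% in the double-negative library.

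A second set of alpha-tubulins was highest in the double-negative library. The gene tuba2 stood at 18.6 FPKM in mCherry+ cells, 27.7 in EGFP+ cells and 106 in double-negative cells, a log2 ratio of −2.45 and −1.90 for the reporter libraries. Levels of tuba1l2, now named tuba1a after the mammalian alpha-tubulin of developing neurons, were 10.5, 17.6 and 67.1 FPKM, with log2 ratios of −2.57 and −1.87. The paralog tuba8l3 had 9.16, 9.12 and 37.7 FPKM, and tuba1l, now tuba1c, had 1.82, 2.58 and 11.1 FPKM. In each of these 4 genes the double-negative library was the highest. Their share of the alpha-tubulin sum was 10.7% for tuba1l2 and 16.9% for tuba2 in the double-negative library, against 1.45% and 2.58% in mCherry+ cells and 2.62% and 4.12% in EGFP+ cells.

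Among the alpha-tubulins, tuba1b had the largest difference between the reporter populations. It stood at 35.8 FPKM in mCherry+ cells, 9.98 in EGFP+ cells and 18.7 in double-negative cells. The mCherry+ level was thus 3.35-fold that of EGFP+ cells (log2 ratio 1.75, at 2-fold or more 12.0% of all genes were higher), and the double-negative level lay between them. In the RefSeq gene order of assembly GRCz12tu, tuba1l, tuba1l2 and tuba1b follow each other as neighbouring protein-coding genes, yet tuba1l and tuba1l2 were at 0.79-fold and 0.62-fold in the mCherry+ library relative to EGFP+ cells. The ratio of tuba1b to tuba1l2 within a library, which does not depend on scaling, was 3.42 in mCherry+ cells, 0.567 in EGFP+ cells and 0.279 in double-negative cells. The remaining alpha-tubulins were tuba8l2 (22.6, 18.7 and 27.4 FPKM), tuba4l (3.15, 4.75 and 2.88 FPKM) and tuba7l, which stayed under 1 FPKM in all 3 libraries. Summed over all 10 genes the alpha-tubulin level was 722 FPKM in mCherry+, 673 in EGFP+ and 629 in double-negative cells, a narrower range than that of most single genes, and the order of each reporter library and double-negative cells turned under every scaling. The coding sequences of tubulin paralogs are so alike that the authors' quantification could have divided their reads between copies, so single tubulin values are less certain than family sums.

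Beta-tubulin showed the same division into a common and a double-negative-high gene. The broadly used tubb4b had 358 FPKM in mCherry+ cells, 547 in EGFP+ cells and 249 in double-negative cells, and ranked 261st, 188th and 199th among all genes by level. For EGFP+ over double-negative its log2 ratio was 1.13; the mCherry+ ratio of 0.52 turned negative with equal FPKM sums. By contrast tubb5 had 5.22, 5.73 and 38.0 FPKM, which was 6.28-fold lower in mCherry+ and 5.80-fold lower in EGFP+ cells than in double-negative cells. The ratio of tubb4b to tubb5 was 68.7 in mCherry+, 95.4 in EGFP+ and 6.54 in double-negative cells.

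Other beta-tubulins stood in the table under clone names and were matched through RefSeq synonyms after the values had been seen. The gene now named tubb2b had 145, 182 and 240 FPKM in mCherry+, EGFP+ and double-negative cells, and the gene now named tubb4bl had 10.8, 24.7 and 93.7 FPKM. The double-negative library was highest for both. With these and the low tubb2 and tubb6 included, summed beta-tubulin was 522 FPKM in mCherry+, 763 in EGFP+ and 627 in double-negative cells, whereas the sum of tubb4b and tubb5 alone was 364, 553 and 287 FPKM. The order of mCherry+ and double-negative cells therefore depended on which gene names were counted, and for the sum of tubb4b and tubb5 it also turned under every scaling.

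**Figure D2:**
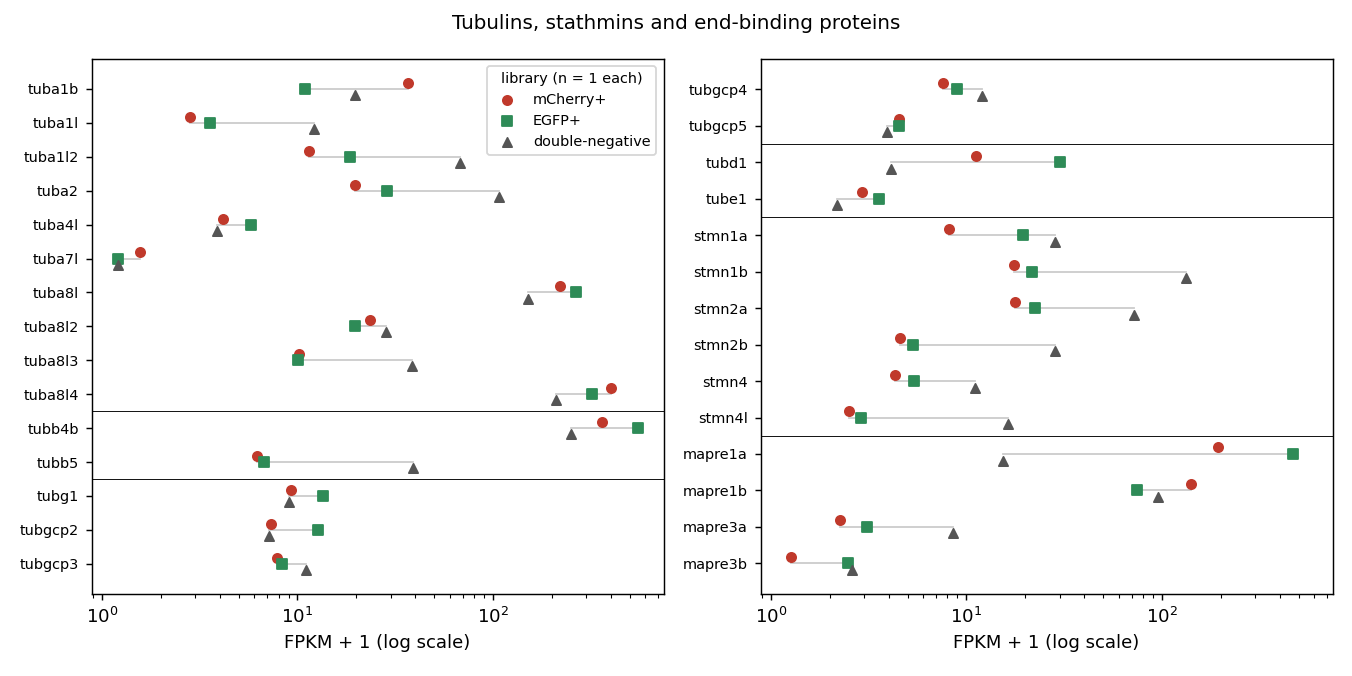
Points give FPKM + 1 on a log axis for each tubulin, gamma-tubulin ring, stathmin and end-binding gene in the mCherry+ (circles), EGFP+ (squares) and double-negative (triangles) libraries, 1 library each, with a line from the lowest to the highest. Triangles stand to the right of both other marks for tuba2, tuba1l2, tuba8l3, tubb5 and all 6 stathmins, and to the left for mapre1a and tubd1.

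Nucleation genes differed little as deposited. Gamma-tubulin tubg1 had 8.25 FPKM in mCherry+, 12.5 in EGFP+ and 8.01 in double-negative cells. Of the ring subunits, tubgcp2 had 6.35, 11.7 and 6.17 FPKM and tubgcp4 6.55, 7.91 and 11 FPKM. All 5 genes of the group stayed within 2-fold in each comparison as deposited. For mCherry+ over double-negative, tubgcp4 was past 2-fold lower under every scaling (log2 ratios from −1.29 to −1.01). With equal FPKM sums tubgcp3 was past it there too (−1.10). For EGFP+ over double-negative, equal FPKM sums took tubgcp3 to −1.27 and tubgcp4 to −1.31. Against double-negative cells, 24.1% of all genes were at least 2-fold lower in mCherry+ and 25.0% in EGFP+ cells. At least 2-fold higher were 19.9% and 21.2%. With so few genes, 5 of 5 within 2-fold cannot be told apart from those shares. The group medians were 0.04 in mCherry+ and 0.20 in EGFP+ against double-negative cells, and both became negative under every scaling. Of 21 centrosome and ring partner genes tested, from 37 listed, 0 were past 4-fold against double-negative cells in either reporter library. Of all genes, 8.18% were at least 4-fold higher and 7.36% lower in mCherry+, and 8.53% and 5.38% in EGFP+ cells. The medians of the 21 genes, 0.08 and 0.11, likewise turned negative under every scaling. For mCherry+ over EGFP+, 1 of the 21 was at least 4-fold lower (3.34% of all genes), cep57 with 2.28, 12.8 and 4.89 FPKM. At 2-fold 4 were higher there (12.0% of all genes) and 2 lower (13.3% of all genes). The centrosomal gene cdk5rap2, listed under a clone name, had 13.3 FPKM in mCherry+, 34.9 in EGFP+ and 8.37 in double-negative cells.

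The delta-tubulin gene tubd1, whose product is needed for the triplet microtubules of centrioles, was the exception among the minor tubulins. It had 10.2 FPKM in mCherry+ cells, 29.0 in EGFP+ cells and 3.12 in double-negative cells. On FPKM + 1, EGFP+ cells were 7.30-fold above double-negative cells (log2 ratio 2.87, rank 526 from the top of 12285 genes) and mCherry+ cells 2.71-fold (1.44). The epsilon-tubulin gene tube1, which acts with it, had 1.91, 2.57 and 1.18 FPKM, the same order of libraries with smaller differences. Within a library, tubd1 was 5.32 times tube1 in mCherry+, 11.3 times in EGFP+ and 2.64 times in double-negative cells.

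End-binding proteins, which track growing microtubule ends and recruit other proteins there, gave the largest difference of the whole family. The gene mapre1a, a co-ortholog of mammalian EB1, had 192 FPKM in mCherry+ cells, 464 in EGFP+ cells and 14.4 in double-negative cells. Its level was 30.2-fold higher in EGFP+ cells (log2 ratio 4.92, rank 168 from the top) and 12.5-fold higher in mCherry+ cells (3.64, rank 313) than in double-negative cells. The other EB1 gene, mapre1b, had 140, 73.5 and 94.0 FPKM, with ratios of 0.57 for mCherry+ over double-negative (negative with equal FPKM sums) and −0.35 for EGFP+ over double-negative.

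The make-up of the end-binding pool therefore differed between the libraries. Of the summed FPKM of the 4 mapre members, mapre1a held 57.6% in mCherry+, 85.8% in EGFP+ and 12.3% in double-negative cells, and mapre1b held 42.0%, 13.6% and 80.0%. The mapre1a to mapre1b ratio was 1.37 in mCherry+, 6.32 in EGFP+ and 0.153 in double-negative cells. The EB3 genes, which mammals use mainly in brain and muscle, were low: mapre3a had 1.27, 2.09 and 7.56 FPKM, and mapre3b had 0.28, 1.49 and 1.60 FPKM. The gene now named mapre2, listed under a clone name, had 19.1, 20.3 and 26.8 FPKM. Of 7 other plus-end tracking genes tested, from 19 listed, 0 were past 4-fold in any comparison. Against double-negative cells 8.18% of all genes were higher and 7.36% lower in mCherry+, and 8.53% and 5.38% in EGFP+ cells. With so few genes, 0 cannot be told apart from those shares. The medians of the 7 genes were −0.05 (mCherry+) and −0.02 (EGFP+) against double-negative cells and 0.13 between the reporter libraries. Among them slain2 had 14.4, 10.7 and 7.59 FPKM and apc, the tumour suppressor that binds microtubule ends, 19.1, 11.3 and 31.7 FPKM.

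**Figure D3:**
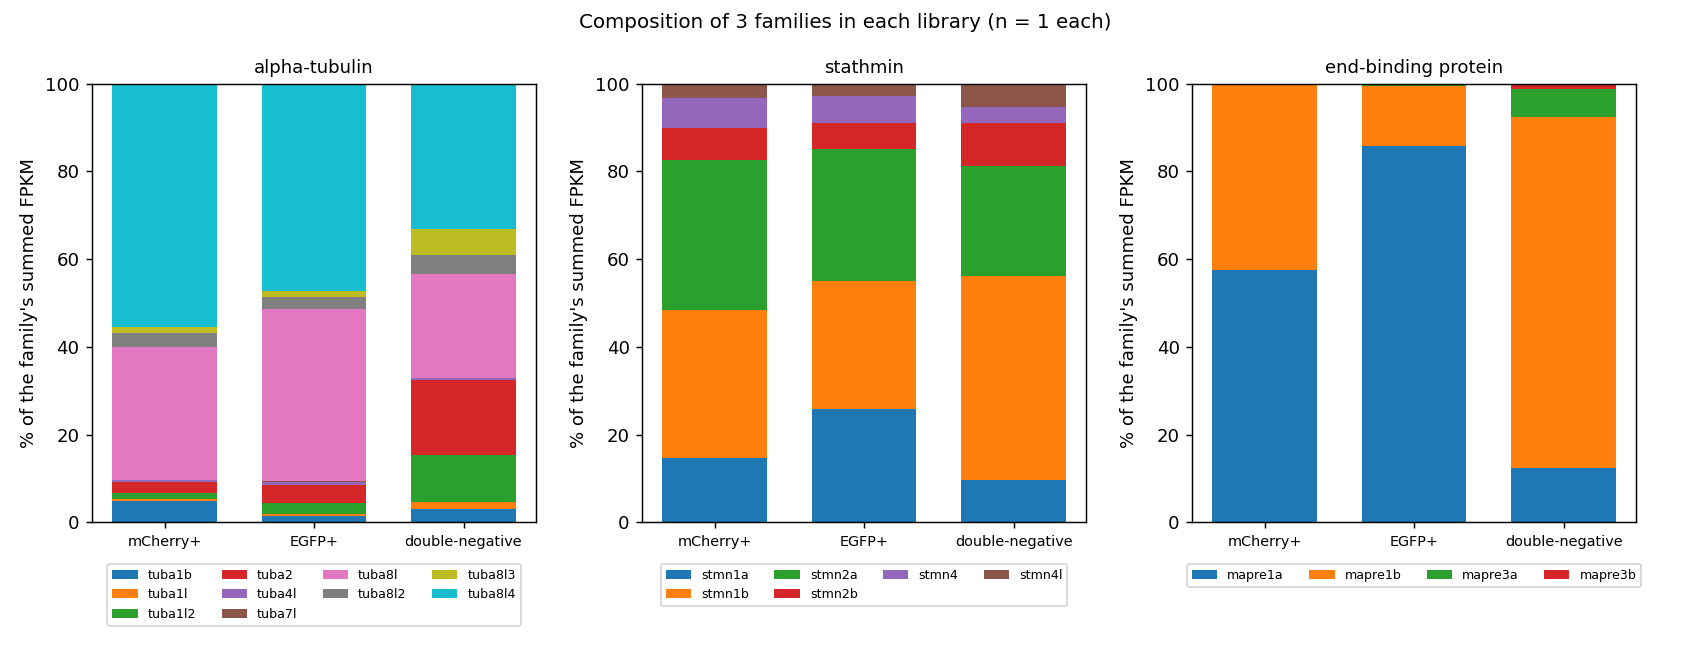
Stacked bars show the percentage of each family's summed FPKM held by each member in the mCherry+, EGFP+ and double-negative libraries, 1 library each, for alpha-tubulins, stathmins and end-binding proteins. In the end-binding panel mapre1a holds 57.6%, 85.8% and 12.3%.

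Stathmins, small proteins that bind free tubulin and promote microtubule shortening, were the group with the lowest ratios. All 6 members were below the double-negative level in both reporter libraries as deposited, and the scalings only lower such ratios further. Of all 12285 genes tested, 6305 were below that level in mCherry+ and 6298 in EGFP+ cells. At least 4-fold lower were 4 stathmins in mCherry+ (7.36% of all genes) and 3 in EGFP+ cells (5.38% of all genes). The stathmin medians were −2.33 and −2.05. The gene stmn1b had 16.5 FPKM in mCherry+ cells, 20.7 in EGFP+ cells and 131 in double-negative cells, 7.56-fold and 6.09-fold lower than in double-negative cells. For stmn2a, a relative of the mammalian axon growth protein SCG10, the values were 16.7, 21.3 and 70.6 FPKM. Its paralog stmn2b had 3.57, 4.31 and 27.4 FPKM.

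The remaining stathmins followed the same order of libraries. Levels of stmn4l were 1.52, 1.88 and 15.3 FPKM and those of stmn4 3.32, 4.43 and 10.1 FPKM. The exception in degree was stmn1a, the other counterpart of the ubiquitous mammalian stathmin 1, with 7.11 FPKM in mCherry+, 18.4 in EGFP+ and 27.3 in double-negative cells. It was 2.39-fold lower in mCherry+ than in EGFP+ cells (log2 ratio −1.26, where 13.3% of all genes were at least 2-fold lower), whereas the other 5 stathmins lay between −0.34 and −0.19. The summed stathmin level was 48.7 FPKM in mCherry+, 71.1 in EGFP+ and 282 in double-negative cells.

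Neuronal genes moved with the double-negative-high tubulins and stathmins. Of 23 neuron markers tested, 20 were at least 4-fold lower in mCherry+ (7.36% of all genes) and 10 in EGFP+ cells (5.38% of all genes) than in double-negative cells, with medians of −2.45 and −1.99. Their summed level was 160 FPKM in mCherry+, 292 in EGFP+ and 1042 in double-negative cells. The defining neuronal RNA-binding gene elavl3 had 9.58, 16.4 and 71.7 FPKM and was not at 0 in any library; gap43 was listed at 0 in all 3. In such bulk libraries fewer cells of a type and less RNA per cell cannot be told apart, and the part of neuronal cells in the tubulin and stathmin differences was not tested. Markers of other tissues stood at medians of −2.41 and −1.48 for epidermis (18 genes), −2.01 and −0.67 for photoreceptors (19 genes) and 0.70 and 1.13 for skeletal muscle (20 genes) for mCherry+ and EGFP+ over double-negative.

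Transport kinesins differed from gene to gene. The kinesin-1 gene kif5aa, whose mammalian counterpart carries cargo along axons, had 2.13 FPKM in mCherry+ cells, 3.75 in EGFP+ cells and 14.7 in double-negative cells. On FPKM + 1 it was 5.0-fold lower in mCherry+ and 3.30-fold lower in EGFP+ than in double-negative cells. Its relative kif5c had 0.54, 0.96 and 3.80 FPKM. The kinesin-3 gene kif1b, a carrier of synaptic vesicle precursors and mitochondria, had 8.47, 3.74 and 9.36 FPKM, so that its mCherry+ level was near that of double-negative cells and the EGFP+ level was lower.

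Kinesin light chains bind cargo to kinesin-1. The gene klc1a had 8.10 FPKM in mCherry+, 2.96 in EGFP+ and 2.88 in double-negative cells. As deposited it was thus 2.29-fold higher in mCherry+ than in EGFP+ cells and 2.34-fold higher than in double-negative cells. Under every scaling klc1a was less than 2-fold higher in mCherry+ than in double-negative cells (log2 ratios from 0.69 to 0.93). It stayed past 2-fold over EGFP+ cells (1.26 to 1.38). Its paralog klc1b had 10.9, 11 and 8.76 FPKM, klc2 had 9.39, 11 and 16.9 FPKM, and klc3 stayed under 1 FPKM. The ratio of klc1a to klc1b was 0.742 in mCherry+, 0.269 in EGFP+ and 0.329 in double-negative cells. The gene now named kif2a, a microtubule depolymerizing kinesin listed under a clone name, had 46.5, 49.0 and 26.2 FPKM, more than any kinesin listed under its own symbol.

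Mitotic kinesins mostly stood near their double-negative levels in both reporter libraries as deposited. The spindle motor kif11 had 14.1 FPKM in mCherry+, 14.1 in EGFP+ and 12.5 in double-negative cells. The chromosome-arm motor kif22 had 12.9, 9.41 and 12.5 FPKM, and kif23, which acts in cytokinesis, had 4.57, 5.24 and 5.07 FPKM. The group medians of −0.05 for mCherry+ and −0.26 for EGFP+ over double-negative lay close to the medians of all genes. The scalings lowered the log2 ratio of the summed level of the group. It ran from −0.98 to −0.68 for mCherry+ and from −1.14 to −0.66 for EGFP+ over double-negative. The only mitotic kinesin past 2-fold against double-negative cells as deposited was kifc1, a minus-end motor that gathers spindle poles. It had 4.12 FPKM in mCherry+, 13.3 in EGFP+ and 16.2 in double-negative cells, 3.35-fold lower in mCherry+ than in double-negative cells. It was also 2.80-fold lower in mCherry+ than in EGFP+ cells, while the kinetochore depolymerase kif2c went the other way with 8.11, 4.19 and 7.05 FPKM.

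Of 22 proliferation markers tested, 0 were past 4-fold in any comparison. Against double-negative cells 8.18% of all genes were higher and 7.36% lower in mCherry+, and 8.53% and 5.38% in EGFP+ cells. The marker medians were −0.05 for mCherry+ and 0.03 for EGFP+ over double-negative, the second negative under every scaling. The replication clamp pcna had 182 FPKM in mCherry+, 227 in EGFP+ and 151 in double-negative cells, and the summed list was 458, 586 and 456 FPKM. The ratio of kif11 to kifc1 was 3.42 in mCherry+, 1.06 in EGFP+ and 0.774 in double-negative cells.

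**Figure D4:**
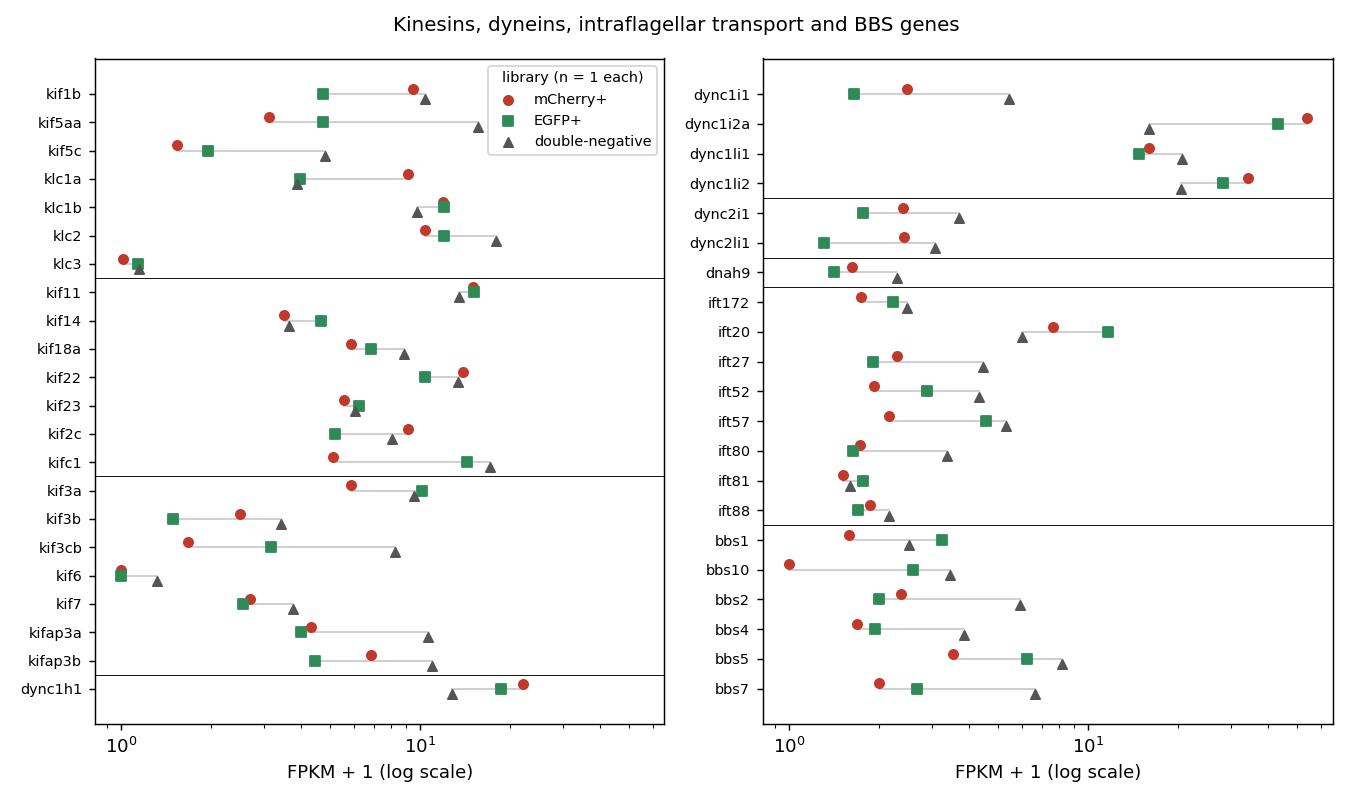
Points give FPKM + 1 on a log axis for each kinesin, dynein, intraflagellar transport and Bardet-Biedl syndrome gene in the mCherry+ (circles), EGFP+ (squares) and double-negative (triangles) libraries, 1 library each. For dync1h1, dync1i2a and dync1li2 the triangle is the leftmost mark, while for kif5aa, the kifap3 genes and bbs2, bbs4 and bbs7 it is the rightmost.

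Cytoplasmic dynein-1, the main motor toward microtubule minus ends, was the motor group with the highest medians: 0.75 for mCherry+ over double-negative and 0.47 for EGFP+ over double-negative, the second negative after housekeeping scaling or with equal FPKM sums. The heavy chain gene dync1h1 had 21.1 FPKM in mCherry+ cells, 17.7 in EGFP+ cells and 11.8 in double-negative cells. The intermediate chain gene dync1i2a had 52.8, 42.0 and 15 FPKM, 3.36-fold and 2.69-fold higher than in double-negative cells. The other intermediate chain gene dync1i1, whose mammalian counterpart is largely neuronal, had 1.49, 0.65 and 4.46 FPKM, so the intermediate chain genes differed from double-negative cells in opposite directions.

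The ratio of dync1i2a to dync1i1 was 35.4 in mCherry+, 65.0 in EGFP+ and 3.37 in double-negative cells. The light intermediate chains also differed: dync1li2 had 33.3, 27.3 and 19.4 FPKM and dync1li1 15, 13.8 and 19.7 FPKM. As deposited, all 5 dynein-1 genes were somewhat higher in mCherry+ than in EGFP+ cells (5513 of all 12285 genes). Their log2 ratios lay between 0.12 and 0.60. Only that of the weakly expressed dync1i1 (1.49 and 0.65 FPKM) was above the housekeeping scatter of 0.46 as deposited. With equal FPKM sums those of dync1h1 (0.51), dync1i2a (0.60) and dync1li2 (0.55) were above 0.46 too.

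Dynein partners were measured beside it. Of 19 dynactin and adaptor genes tested, 0 were past 4-fold in mCherry+ over double-negative (8.18% of all genes higher, 7.36% lower). The median there was 0.59, negative with equal FPKM sums. In EGFP+ over double-negative 3 were at least 4-fold higher (8.53% of all genes) and 1 lower (5.38% of all genes). The EGFP+ median was 1.06. The 3 were capza1b (197 FPKM in mCherry+, 625 in EGFP+ and 104 in double-negative cells), capza1a (173, 352 and 63.7) and capzb (56.2, 147 and 28.8), subunits of the actin capping protein that dynactin also contains. The 1 lower gene was dctn6, listed under a clone name, with 7.22 FPKM in mCherry+ cells, listed at 0 in EGFP+ cells and at 3.30 in double-negative cells. Dynactin subunits proper included dctn2 with 47.9, 77.4 and 32.5 FPKM and dctn3 with 30.2, 65.4 and 34.1 FPKM. The dynein regulator ndel1b had 40.5, 59.5 and 18.3 FPKM. Its paralog ndel1a had 10.1, 27.2 and 23.8 FPKM, a log2 ratio of −1.16 for mCherry+ over double-negative. Of the 19 genes, 4 were below the double-negative level in mCherry+ (6305 of all 12285 genes) and 3 in EGFP+ cells (6298).

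Of 9 dynein light chains tested, 9 were below the double-negative level in mCherry+ (6305 of all 12285 genes) and 5 in EGFP+ cells (6298). Their medians were −1.09 and −0.20. At least 4-fold lower were 2 in mCherry+ cells (7.36% of all genes) and 1 in EGFP+ cells (5.38% of all genes). The most abundant, dynll1, had 77.6 FPKM in mCherry+, 128 in EGFP+ and 127 in double-negative cells, while dynll2a had 2.21, 2.59 and 16.4 FPKM. The roadblock gene dynlrb1 had 29.4, 68.8 and 32.4 FPKM and the Tctex gene dynlt3 50.3, 94.3 and 55.6 FPKM, both highest in EGFP+ cells as deposited. Their mCherry+ ratios to double-negative cells, −0.13 and −0.14, lay inside the housekeeping scatter of 0.56. The 9 include the axonemal light chain genes dnal1, dnal4a and dnal4b, with mCherry+ ratios to double-negative cells of −1.71, −0.72 and −1.09. The median of the 9 for mCherry+ over EGFP+ cells was −0.89.

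Tubulin folding and modification were described by lists. Of 17 tubulin folding genes tested, 14 were above the double-negative level in mCherry+ (5950 of all 12285 genes) and 16 in EGFP+ cells (5949). None was past 4-fold, where 8.18% of all genes were at least 4-fold higher in mCherry+ and 8.53% in EGFP+ cells. The folding medians of 0.54 and 0.66 lay near the housekeeping medians of 0.42 and 0.62. With equal FPKM sums the folding and the housekeeping medians were all negative. The cofactor tbcb had 147, 136 and 65.8 FPKM and the chaperonin subunit tcp1 376, 300 and 193 FPKM in mCherry+, EGFP+ and double-negative cells. Of 17 modifying and severing genes tested, 1 was at least 4-fold lower in mCherry+ cells (7.36% of all genes) and 1 at least 4-fold higher in EGFP+ cells (8.53% of all genes) than in double-negative cells, with medians of −0.06 and −0.33.

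The higher gene was the tubulin tyrosine ligase gene ttl, which stands under a clone name and had 58.8 FPKM in mCherry+, 133 in EGFP+ and 16.6 in double-negative cells, a log2 ratio of 2.93 for EGFP+ and 1.76 for mCherry+ over double-negative. The lower gene was atat1, an alpha-tubulin acetyltransferase gene whose mark is found on long-lived microtubules, with 2.61, 3.88 and 16.8 FPKM, with ratios of −2.30 for mCherry+ and −1.87 for EGFP+. Between the reporter populations, vash2, which removes the terminal tyrosine, was at 26.1 FPKM in mCherry+ and 6.27 in EGFP+ cells (10.7 in double-negative cells), and agtpbp1, which trims glutamate chains, at 7.75 and 28.9 FPKM (8.15 in double-negative cells).

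Genes listed as microtubule-associated proteins mostly stood below their double-negative level. Of 12 tested, from 31 listed, 0 were at least 4-fold lower in mCherry+ (7.36% of all genes) and 1 in EGFP+ cells (5.38% of all genes). The 12 include ensab, an endosulfine gene and not a microtubule-associated protein gene. Its log2 ratio was −1.27 for mCherry+ and 0.19 for EGFP+ over double-negative. At 2-fold 7 were lower in mCherry+ (24.1% of all genes) and 6 in EGFP+ cells (25.0% of all genes), and the medians were −1.29 and −0.91. The doublecortin-like kinase gene dclk1a had 2.95, 2.77 and 12.2 FPKM, and tppp3 had 0.93, 0.41 and 5.80 FPKM. Above the double-negative level in both reporter libraries, as deposited, were mid1ip1b with 102 FPKM in mCherry+, 125 in EGFP+ and 46.2 in double-negative cells, and gtse1, listed under a clone name, with 9.73, 13.6 and 5.37 FPKM. The gene map7d1b, a relative of the kinesin-1 cofactor MAP7, had 33.4 FPKM in mCherry+, 8.43 in EGFP+ and 11 in double-negative cells, higher in mCherry+ cells and slightly lower in EGFP+ cells (log2 ratio −0.35) than in double-negative cells.

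**Figure D5:**
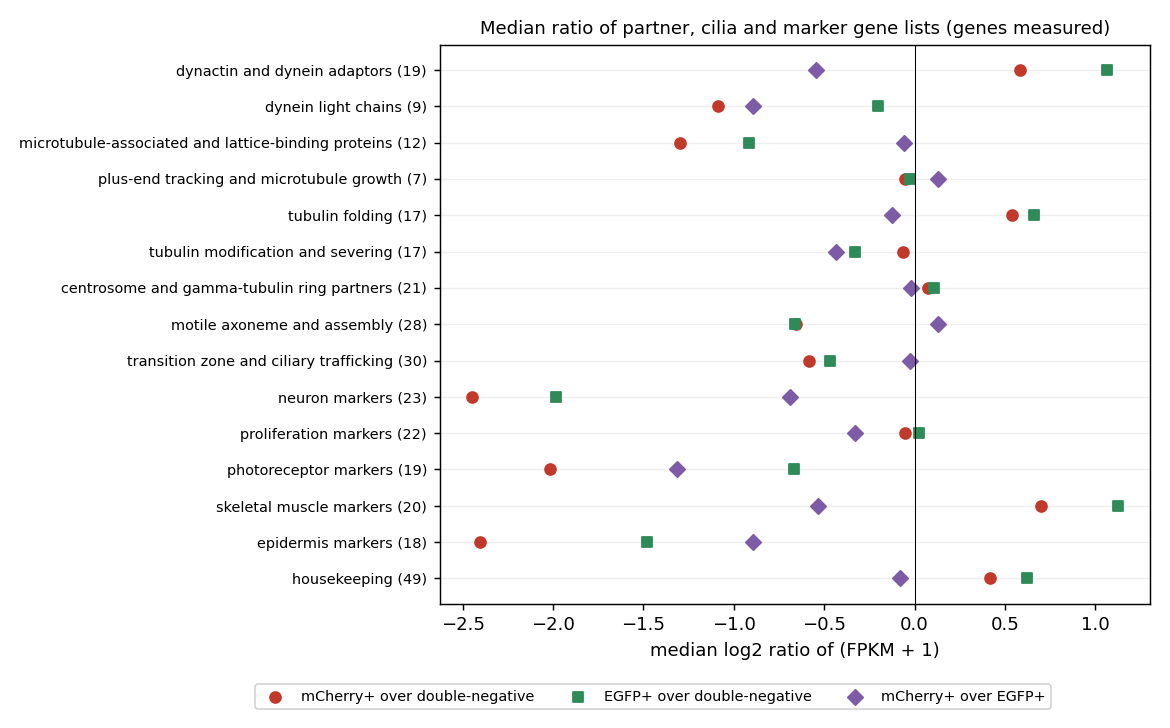
Points give the median log2 ratio of (FPKM + 1) of each gene list, with the number of genes measured, for mCherry+ over double-negative (circles), EGFP+ over double-negative (squares) and mCherry+ over EGFP+ (diamonds). Dynactin, tubulin folding, housekeeping and skeletal muscle lists lie to the right of 0 in both comparisons with double-negative cells, and centrosome genes just to its right. Microtubule-associated proteins, cilia lists and neuron, photoreceptor and epidermis markers lie to the left.

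Most members with ciliary roles were below their double-negative level in the reporter libraries. Of 6 ciliary kinesin genes tested, 6 were below it in mCherry+ and 5 in EGFP+ cells. Of 7 intraflagellar transport genes tested, 6 were below it in each. Of all 12285 genes tested, 6305 were below it in mCherry+ and 6298 in EGFP+ cells. The kinesin-2 complex, which carries cargo toward the ciliary tip, was represented by kif3a with 4.87 FPKM in mCherry+, 9.16 in EGFP+ and 8.52 in double-negative cells, and by kif3b with 1.51, 0.50 and 2.42 FPKM. Its accessory subunits kifap3a (3.33, 3.0 and 9.62 FPKM) and kifap3b (5.85, 3.44 and 9.98 FPKM) were highest in the double-negative library. The related gene kif3cb had 0.68, 2.17 and 7.22 FPKM. On FPKM + 1 it was 4.90-fold lower in mCherry+ than in double-negative cells. A ciliary kinesin of the Hedgehog pathway, kif7, had 1.71, 1.56 and 2.76 FPKM. The gene kif6 was listed at 0 in mCherry+ and in EGFP+ cells, against 0.32 FPKM in double-negative cells. The medians of this group were −0.69 for mCherry+ and −1.25 for EGFP+ over double-negative.

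Of the 8 intraflagellar transport genes, all of the complex called IFT-B, 7 reached 1 FPKM in a library. The gene ift20, which also has a role at the Golgi apparatus, had 6.62 FPKM in mCherry+, 10.7 in EGFP+ and 5.04 in double-negative cells, the highest level of the group in each library. Its mCherry+ ratio of 0.34 turned negative after housekeeping scaling or with equal FPKM sums, whereas the EGFP+ ratio of 0.95 did not. The other 7 stood between 0.52 and 1.29 FPKM in mCherry+, 0.64 and 3.57 in EGFP+, and 0.60 and 4.32 in double-negative cells. Group medians were −0.96 for mCherry+ and −0.33 for EGFP+ over double-negative. Of 4 further genes under other names, ift74 had 1.42, 4.29 and 1.37 FPKM, while ift22, ift56 and ift70 were highest in double-negative cells.

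Most of the members with bbs symbols encode subunits of the BBSome, a coat that moves membrane proteins into and out of cilia. All 6 tested under such symbols were lower in mCherry+ than in double-negative cells (6305 of all 12285 genes). Levels were 2.54, 5.25 and 7.18 FPKM for bbs5, 1.0, 1.68 and 5.67 for bbs7 and 1.38, 1.0 and 4.91 for bbs2. For bbs10, a chaperonin-like gene needed to assemble the complex, the mCherry+ library was listed at 0, against 1.60 FPKM in EGFP+ and 2.45 in double-negative cells. Of the 6 genes, 5 were at least 2-fold lower in mCherry+ (24.1% of all genes) and 2 in EGFP+ cells (25.0% of all genes). None was past 4-fold, where 7.36% and 5.38% of all genes were lower. The group medians were −1.26 for mCherry+ and −0.70 for EGFP+ over double-negative. Bardet-Biedl syndrome genes under other symbols were counted with the trafficking list below and went both ways. As deposited, ttc8 was above the double-negative level in both reporter libraries, with 2.89 FPKM in mCherry+, 1.47 in EGFP+ and 1.14 in double-negative cells. In the same order mkks had 0.72, 2.53 and 1.57 FPKM and arl6 10.7, 6.12 and 12.7 FPKM.

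The dyneins of cilia were barely measured. The dynein-2 genes, which return cargo from the ciliary tip, had 1.41, 0.77 and 2.69 FPKM for dync2i1 and 1.42, 0.31 and 2.08 FPKM for dync2li1 in mCherry+, EGFP+ and double-negative cells. The axonemal outer-arm gene dnah9 had 0.63, 0.42 and 1.30 FPKM. The axonemal gene now named dnai1.2, listed under a clone name, had 0.47, 2.08 and 0.56 FPKM. With the 4 axonemal dynein genes under other names added, the log2 ratio of sums for EGFP+ over double-negative was 0.21, against −0.70 for dnah9 alone.

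Of 28 motile cilia genes tested, 20 were below the double-negative level in mCherry+ (6305 of all 12285 genes) and 22 in EGFP+ cells (6298). Their medians were −0.65 and −0.66. The ciliary master regulator foxj1a had 4.38, 2.72 and 6.34 FPKM. Among 43 found, 11 were listed at 0 in mCherry+, 12 in EGFP+ and 1 in double-negative cells. The 1 gene of this list at least 4-fold higher in both reporter libraries (8.18% and 8.53% of all genes) was spag1a, a co-chaperone gene used for dynein arm assembly. It had 130 FPKM in mCherry+, 79.8 in EGFP+ and 9.73 in double-negative cells. At least 4-fold lower were 0 genes in mCherry+ (7.36% of all genes) and 2 in EGFP+ cells (5.38% of all genes). The 2 were nme5 (9.08, 0.93 and 8.39 FPKM) and daw1, listed under an older name (0.69, 0 and 3.10 FPKM). The whole list summed to 205 FPKM in mCherry+, 170 in EGFP+ and 99.8 in double-negative cells. Of these sums spag1a alone held 130, 79.8 and 9.73 FPKM, and cfap298 25.0, 57.9 and 20.5 FPKM.

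Of 30 transition zone and ciliary trafficking genes, 25 were below the double-negative level in each reporter library. Of all 12285 genes, 6305 were below it in mCherry+ and 6298 in EGFP+ cells. The medians of the 30 genes were −0.58 in mCherry+ and −0.47 in EGFP+ cells. The 2 at least 4-fold lower in mCherry+ cells and the 1 in EGFP+ cells were no larger a share than over all genes (7.36% and 5.38%). The lipid-binding trafficking genes pde6d (3.90, 5.97 and 20.3 FPKM) and unc119b (3.21, 10.4 and 16.6 FPKM) and the small GTPase gene arl3 that releases their cargo (5.25, 8.31 and 20.2 FPKM) were among the lowest in mCherry+ cells. The products of these genes also serve photoreceptors, whose marker sum was 122 FPKM in mCherry+, 385 in EGFP+ and 640 in double-negative cells; the part of photoreceptors in these values was not tested.

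Between macrophage- and neutrophil-reporter cells, members were counted at 2-fold as deposited. At least 2-fold higher in mCherry+ than in EGFP+ cells were 2 of 68 members, tuba1b and klc1a, against 12.0% of all genes. At least 2-fold lower were 7 members, against 13.3% of all genes: kifc1 (log2 ratio −1.48), tubd1 (−1.43), bbs10 (−1.38, listed at 0 in mCherry+), mapre1a (−1.27), stmn1a (−1.26), ift57 (−1.07) and bbs1 (−1.03). These lists depended on scaling. Under every scaling kif1b and mapre1b were also past 2-fold higher (log2 ratios of at least 1.07 and 1.02). Under every scaling ift57 and bbs1 were less than 2-fold lower (at most −0.975 and −0.93). In some scaling kif2c was past 2-fold higher (1.02), and mapre1a (−0.99) and stmn1a (−0.98) fell just short of 2-fold lower. The median of the 68 members was −0.21, and 0.01 with equal FPKM sums.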

How the data were processed

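RNA from 3 sorted cell populations was sequenced, 1 library each. Per the labels' protocols, ribosomal RNA was depleted from 50 ng of total RNA before low-input library preparation with a SMARTer kit. The submitters' processing notes name TopHat2 2.0.11, Cufflinks 2.2.1, cutadapt and genome build danRer7; the annotation is not stated there. The deposited table holds the authors' FPKM per gene and library, with sums of 571639 (mCherry+), 696949 (EGFP+) and 356886 (double-negative).

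Ratios were log2 of (FPKM + 1), computed over genes that reached 1 FPKM in some library (Python 3.11.15, pandas 2.3.3, numpy 2.4.6), and counted past 4-fold. With 1 library per group no test was possible. Read depth was not recovered: among 81 to 143 genes under 0.3 FPKM in a pair of libraries, no 1% ratio step held more than 4.65% of them, so no counting interval is given. Members were sorted into 14 role groups by symbol. All 72 matched RefSeq names of GRCz12tu, 68 as current symbols and 4 as synonyms; 19 further genes, listed under clone or older names, were matched after the values were seen. The 17 gene lists had 473 entries, of which 362 were found, 36 through an older symbol. Of named members, the rule took those past 4-fold, the highest level in each role group and library, and the highest and lowest ratio of each role group; of lists, the 3 highest and 3 lowest ratios, all at 5 FPKM or more in a library. Further genes were named for their role or as paralogs after their values were seen, as were the gene pairs whose ratio is given within a library. Members and lists were chosen with earlier results of these data known. The steps were tested on simulated data, with somewhat less scatter than the housekeeping genes here and with changes placed only in well-expressed genes. That run checked the code and does not measure how certain the counts are.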

Additional observations from a re-analysis of the deposited data

How the results depend on the processing

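No paired analysis was possible because each population has 1 library. The count of members at least 4-fold higher kept its value in all 3 comparisons under both other pseudocounts, both other filters, the 3 scalings and with the 19 genes under other names, the last chosen after seeing the data. The 10 members at least 4-fold lower in mCherry+ than in double-negative cells were 16 with a pseudocount of 0.1, 4 with a pseudocount of 5, 15 after median-ratio scaling, 16 after housekeeping scaling and 17 with equal FPKM sums. The 4 lower in EGFP+ than in double-negative cells were 10 with a pseudocount of 0.1, 2 with a pseudocount of 5, 11 after median-ratio scaling, 11 after housekeeping scaling and 17 with equal FPKM sums. The scalings lower all ratios to double-negative cells together, and a smaller pseudocount widens ratios of low genes by construction. Between mCherry+ and EGFP+ cells the 0 lower became 2 with a pseudocount of 0.1. At a 2-fold threshold the counts as deposited were 4 higher and 26 lower for mCherry+ over double-negative, 4 and 25 for EGFP+ over double-negative, and 2 and 7 for mCherry+ over EGFP+. At 8-fold they were 1 higher and 0 lower for mCherry+ over double-negative, 1 and 0 for EGFP+ over double-negative, and 0 and 0 between the reporter libraries. The sign of a ratio past 4-fold could not change under these settings, so its constancy carries no information. Pseudocounts and filters keep a sign, and the largest scaling factor was 0.97 in log2, less than 4-fold. Depth is unknown, so values under about 1 FPKM are not read as absence.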
